A study of Mus musculus with 6 samples.

Results

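The nuclear genes of the respiratory chain were followed at their promoters in CUT&Tag libraries of primary mouse cardiac fibroblasts. In CUT&Tag a transposase is tethered to an antibody on chromatin, and reads gather where its target sits. Members were all genes of the deposited region tables whose symbol begins with Nduf, Sdha to Sdhd (with the Sdhaf assembly factors), Uqcr, Cox4 to Cox8 or Atp5, pseudogenes left out. A gene entered with its densest region within 3 kb of a transcription start site (TSS), and this region is called its promoter region. The TSS is that of the transcript assigned to the region, so regions of the same gene can refer to different starts. For Ndufaf7, regions at chr17:79244472-79244647 and chr17:79254191-79254276 were listed 6 bp upstream and 776 bp downstream. Of 26742 genes with any region, 83 were members, and 74 of these had a promoter region, against 22244 genes in all. The remaining 9 members had only regions farther away: Atp5po, Cox6c, Cox7b2, Ndufa9, Ndufb1, Ndufs3, Ndufs4, Sdhaf3 and Uqcr10. By RefSeq, 100 protein-coding genes carry these prefixes, and 19 of them had no region in the 4 tables used here, among them Sdhc, Uqcrb, Uqcrh, Cox6a1, Cox6a2, Cox6b1, Cox7b and Ndufa13. A further 2 members, Atp5if1 and Ndufb11b, are listed by RefSeq under symbols without these prefixes.

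The 6 libraries form 2 sets of 3, marked T and S in the sample titles, with 1 library per treatment. The study examined TAZ and SRF, 2 transcription regulators that respond to mechanical cues, and the T set was taken as TAZ and the S set as SRF; no label states the antibody. All libraries came from hearts, as primary cardiac fibroblasts. The treatments were NC, the control; TGF-b, a cytokine that drives fibroblasts to become myofibroblasts, which lay down matrix; and TGF-b with an siRNA, labelled TGF-b+SiTAZ (T) or TGF-b+SiSRF (S). The study's text instead describes siRNA against Piezo2 in these experiments, so the third library is called the siRNA library and its target is not stated further. The design text of the series describes cells made Tet3-deficient with a Cre virus before TGF-b, and no label of these libraries gives such a deletion, so whether any of them carried it is not known. Mouse strain, age and pooling of animals are not given for these cells in the labels. With 1 library per group there were no replicates, so no treatment could be tested and each difference below is one between 2 libraries. The interval of a ratio covers the counting error of its reads alone, whereas intervals of a share or a median reflect the number and spread of the members, which are not replicates of a condition.

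The respiratory chain passes electrons from NADH and succinate to oxygen through complexes I to IV of the inner mitochondrial membrane, and complex V uses the resulting proton gradient to make ATP. Most subunits are encoded in the nucleus, and a small number, in complexes I, III, IV and V, by mitochondrial DNA. Promoters of the nuclear genes are known for sites of NRF1, GABP (an ETS factor) and YY1, which are taken to coordinate their transcription. The heart is rich in these proteins, and some complex IV subunits exist as muscle and ubiquitous isoforms.

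Promoter sequences were taken from RefSeq (GRCm38.p6), as windows of 300 bases from 250 before to 50 after each start. They were matched for 63 of the 74 members, with 68 promoters. Each motif was searched on both strands, and no match of 1 motif overlapped a match of another in the members. The letters GCGCATGC, the core of the NRF1 site, occurred in 9 of 68 member promoters (13.2%), against 2.71% of 32851 promoters of all genes. By gene, it was 14.3% of 63 members against 3.90% of 17429 other protein-coding genes. The YY1 letters AAGATGGCG occurred in 6 member promoters (8.82%) against 1.40%, and the ETS letters CCGGAAG in 15 (22.1%) against 8.86%. The TEAD letters GGAATG, recognised by the partners of TAZ, occurred in 7 (10.3%) against 14.7%, and the CArG box, to which SRF binds, in 0 of 68 against 1.63%. The SP letters GGGCGG were in 34 of 68 against 35.7%. Per gene, the shares in members and other coding genes were 9.52% and 2.11% for YY1 letters and 23.8% and 12.9% for ETS letters. They were 9.52% and 15.5% for TEAD letters, 0% and 1.76% for the CArG box, and 52.4% and 49.2% for SP letters. The median observed over expected CpG was 0.82 in member promoters and 0.57 in promoters of coding genes, at a median GC content of 59.2% and 56.3%. These are descriptions of letters in a window, and a window without them says nothing of binding.

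The following promoters are printed 5′ to 3′ on the strand of the gene, because their regions carry the widest differences between libraries or the NRF1 letters. They were chosen after the values were seen. Capitals mark matches to NRF1, ETS, YY1 or TEAD letters on either strand, and SP letters are left in lower case. Ndufb5 and Ndufs6 encode accessory subunits of complex I. Their windows are chr3:32736813-32737112 on the plus strand and chr13:73328433-73328732 on the minus strand, and the capitals of Ndufs6 are the YY1 letters, 33 bases after the start.
Ndufb5: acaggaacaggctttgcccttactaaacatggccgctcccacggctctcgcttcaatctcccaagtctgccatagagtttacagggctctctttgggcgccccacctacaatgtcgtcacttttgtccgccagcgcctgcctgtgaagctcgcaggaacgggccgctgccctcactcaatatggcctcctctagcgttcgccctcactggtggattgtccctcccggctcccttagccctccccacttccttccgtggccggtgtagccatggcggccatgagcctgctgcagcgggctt
Ndufs6: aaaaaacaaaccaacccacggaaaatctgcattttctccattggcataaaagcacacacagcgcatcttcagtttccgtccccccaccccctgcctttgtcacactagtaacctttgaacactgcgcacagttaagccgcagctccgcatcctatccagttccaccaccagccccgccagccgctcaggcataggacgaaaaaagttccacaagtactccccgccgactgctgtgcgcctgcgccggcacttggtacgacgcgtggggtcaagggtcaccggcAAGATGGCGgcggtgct

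Ndufa8, an accessory subunit, and Ndufaf4, an assembly factor of complex I, hold NRF1 letters. The windows are chr2:36049289-36049588 on the minus strand and chr4:24897833-24898132 on the plus strand. In Ndufa8 the NRF1 letters begin 8 bases before the start, and the upstream capitals, 73 bases before it, are TEAD letters. In Ndufaf4 they begin 113 bases before the start, where matches on both strands overlap, and again 1 base after it.
Ndufa8: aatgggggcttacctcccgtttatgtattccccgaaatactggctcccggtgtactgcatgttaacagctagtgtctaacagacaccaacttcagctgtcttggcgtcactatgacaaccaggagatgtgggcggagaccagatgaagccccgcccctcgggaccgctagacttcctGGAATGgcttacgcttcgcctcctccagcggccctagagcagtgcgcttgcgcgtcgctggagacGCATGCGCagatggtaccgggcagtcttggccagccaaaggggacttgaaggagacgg
Ndufaf4: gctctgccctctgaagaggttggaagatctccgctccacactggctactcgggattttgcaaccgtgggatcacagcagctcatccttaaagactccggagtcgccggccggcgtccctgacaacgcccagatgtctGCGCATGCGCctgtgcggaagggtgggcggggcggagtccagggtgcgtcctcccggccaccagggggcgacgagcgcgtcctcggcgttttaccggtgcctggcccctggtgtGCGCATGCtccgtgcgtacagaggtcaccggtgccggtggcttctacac

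Uqcrc1 encodes a core protein and Uqcrfs1 the Rieske iron-sulphur protein of complex III. Their windows are chr9:108936398-108936697 on the plus strand and chr13:30545267-30545566 on the minus strand. Uqcrc1 holds overlapping NRF1 matches on both strands, from 30 bases after the start, and none of the 4 capitalised motifs was found in Uqcrfs1.
Uqcrc1: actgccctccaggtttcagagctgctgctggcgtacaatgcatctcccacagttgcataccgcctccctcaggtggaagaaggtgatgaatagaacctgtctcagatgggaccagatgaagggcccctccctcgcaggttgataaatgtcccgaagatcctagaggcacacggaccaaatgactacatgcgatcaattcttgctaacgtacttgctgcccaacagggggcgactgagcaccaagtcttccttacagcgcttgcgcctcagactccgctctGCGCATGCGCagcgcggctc
Uqcrfs1: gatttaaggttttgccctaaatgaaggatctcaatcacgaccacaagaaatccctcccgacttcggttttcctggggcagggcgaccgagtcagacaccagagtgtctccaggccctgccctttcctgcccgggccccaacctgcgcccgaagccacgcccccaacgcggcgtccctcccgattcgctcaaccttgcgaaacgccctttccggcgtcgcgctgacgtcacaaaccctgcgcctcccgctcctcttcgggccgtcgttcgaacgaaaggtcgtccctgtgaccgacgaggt

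Cox8a encodes a ubiquitous subunit of complex IV and Atp5f1c, listed by RefSeq as Atp5c1, the gamma subunit of complex V. The windows are chr19:7217567-7217866 and chr2:10080461-10080760, both on the minus strand. Cox8a holds ETS letters on the opposite strand, from 5 bases before and from 32 bases after the start. Atp5f1c, printed for the first of its 2 starts, holds none of these motifs.
Cox8a: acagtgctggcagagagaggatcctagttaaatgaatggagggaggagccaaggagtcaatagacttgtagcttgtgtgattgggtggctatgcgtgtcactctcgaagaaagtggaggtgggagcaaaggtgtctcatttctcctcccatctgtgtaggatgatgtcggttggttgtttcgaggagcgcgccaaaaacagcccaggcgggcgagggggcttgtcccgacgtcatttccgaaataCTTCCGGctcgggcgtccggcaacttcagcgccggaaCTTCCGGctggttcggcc
Atp5f1c: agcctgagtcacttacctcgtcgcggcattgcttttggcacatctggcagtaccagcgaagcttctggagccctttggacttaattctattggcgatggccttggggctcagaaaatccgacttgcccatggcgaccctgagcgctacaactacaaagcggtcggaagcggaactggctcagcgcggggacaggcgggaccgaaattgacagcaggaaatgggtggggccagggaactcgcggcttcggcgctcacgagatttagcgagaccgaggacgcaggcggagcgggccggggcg

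Many of these genes share a short stretch with a gene that starts on the other strand. Of 63 matched members, 17 (27.0%) had the start of another protein-coding gene on the opposite strand within 1 kb, against 9.55% of 17429 other coding genes. Ndufa7 started 10 bases from Rps28, a ribosomal protein gene, and Ndufa1 16 bases from Rnf113a1. Sdhd lay 52 bases from Timm8b, Sdha 77 from Ccdc127, Atp5f1c 102 from Kin and Ndufb5 308 from Mrpl47, a mitochondrial ribosomal protein gene. Atp5pf, a stalk subunit of complex V, started 148 bases from Gabpa, which encodes the DNA-binding part of GABP. Reads at such promoters cannot be told apart by gene, since the values count reads in 2 kb around a region's centre.

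The densities were turned back into whole reads, called reads here, by undoing the normalization of the authors. Depth was low. The members' promoter regions of the T set held a median of 14.5 NC and 18.0 TGF-b reads. For siRNA against TGF-b they held 20.5 TGF-b and 10.5 siRNA reads. The S set medians were 9.0 and 16.0 for NC and TGF-b, and 16.0 and 17.0 for TGF-b and siRNA. The medians over all genes in these comparisons lay between 9.0 and 15.0 reads. A library was at 3 reads or fewer in 14 of 62 and 14 of 56 members of the T set comparisons, and in 6 of 20 and 2 of 30 of the S set. The shares over all genes were 24.6% and 32.7% (T) and 18.2% and 11.1% (S). A value of 3 reads or fewer is close to the floor, and a gene listed at 0 is compared with 3 reads as a lower bound.

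The T set had promoter regions for 70 members and the S set for 35, with 31 in common. That is 44.3% of the T set members and 88.6% of the S set members. For the S set no share over all genes was taken, so 88.6% is not read as a trait of the members. Of all 20529 genes with a promoter region in the T set, 39.8% also had one in the S set. The chosen regions of the 2 sets overlapped by at least 1 bp in 20 of these 31 members. All 4 tables held a promoter region for 11 members. Neither count was made over all genes, so neither is read as a trait of the members. The members seen only in the S set were Atp5pb, Ndufv1, Ndufv3 and the assembly factor Ndufaf8. None of the 5 complex III members with a promoter region in the T set had one in the S set, where 39.8% of all T set genes did.

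The regions lay closer to the start than those of other genes. For TGF-b against NC in the T set, the median distance was 85.5 bp in 62 members and 355.0 bp over 16652 genes. The S set gave 69.0 bp in 20 members and 299.0 bp over 6762 genes. In the siRNA tables the medians were 102.5 bp against 381.5 bp (T) and 61.0 bp against 171.0 bp (S). Within 200 bp of the TSS lay 62.9%, 75.0%, 64.3% and 80.0% of the members in these 4 tables, against 41.6%, 44.1%, 40.5% and 53.1% of all genes. The share annotated as 5' UTR in the deposited tables was 17.7% in members and 8.43% over all genes in the first T set table, and 33.3% and 11.5% in the S set siRNA table. The density of the median member stood at percentile 57.3 and 62.0 of all genes (T) and at 44.9 and 58.6 (S). The median member thus lay near the middle of all genes in density.

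**Figure D1:**
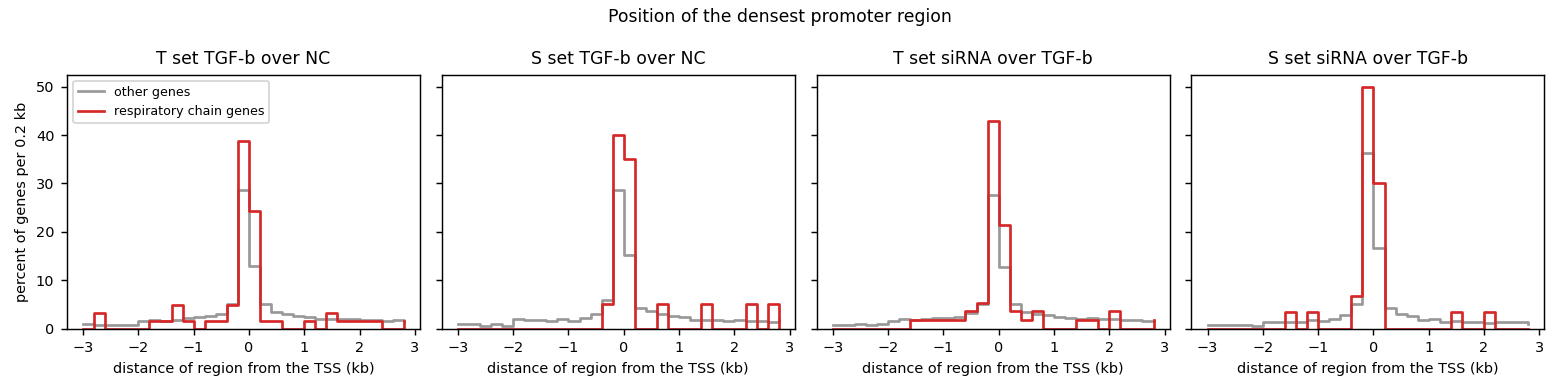
Distance in kb of each gene's densest promoter region from the TSS (negative is upstream), as a percent of genes per 0.2 kb, for respiratory chain genes (red) and other genes (grey) in the 4 comparisons. The members gather in the bins beside the TSS in all 4 panels, with a median distance of 61.0 to 102.5 bp.

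The first comparison asked how TGF-b alters chromatin association at these promoters in the T set. Of 62 members, 16 had a ratio at least 2-fold higher with TGF-b and 15 a ratio at least 2-fold lower, and 31 lay between. The median log2 ratio was -0.07 (95% rank interval -0.35 to 0.58), and -0.04 over all genes. The share higher was 25.8% (Wilson 95% interval 16.6% to 37.9%), where 20.6% of all genes were called by the same rule. The share lower was 24.2% (15.3% to 36.2%), where 25.1% of all genes were called. Both intervals held the share of all genes. With a floor of 3 reads in each library, 16 were higher and 12 lower, where 19.5% and 20.1% of all genes were called, and the 3 lost were Ndufa12, Ndufb9 and Ndufb11b. Among the 39 members whose region lay within 200 bp of the TSS, 11 were higher and 7 lower, at 28.2% and 17.9%, where 25.5% and 11.2% of such genes were called. The interval of the ratio lay above 0 for 19 members, below 0 for 12 and included 0 for 31. Intervals were not counted over all genes, so these counts have no background.

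Of the 8 members with the most signal, 1 was past 2-fold, Sdhaf1, which helps to insert iron-sulphur clusters into Sdhb. Its region, 2138 bp downstream of the TSS, had 20 NC, 55 TGF-b and 28 siRNA reads, at 1.42 (0.73 to 2.20) for TGF-b over NC. Atp5mc2, a gene for the c subunit of the complex V rotor, had 79 NC reads and 109 TGF-b reads, which gave a log2 ratio of 0.37 (-0.04 to 0.79). Ndufs8, an iron-sulphur core subunit of complex I, had 52 and 49 reads, at -0.12 (-0.68 to 0.44). Uqcrq, a small subunit of complex III, had 40 and 60, at 0.54 (-0.02 to 1.13). All 3 intervals included 0, as did that of Ndufa8, with 40 and 33 reads (-0.27, -0.94 to 0.38), and that of Sdhb, given with complex II. Atp5f1d, the delta subunit of complex V, had 39, 60 and 75 reads in NC, TGF-b and siRNA, at 0.58 (0.02 to 1.17) for TGF-b over NC. Atp5mc1, another c subunit gene, went from 25 to 50 reads, at 0.97 (0.31 to 1.69), just under the 2-fold mark. The latter 2 intervals lay above 0.

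The widest difference was at Ndufb5, an accessory subunit in the membrane arm of complex I. Reads are given in the order NC, TGF-b and siRNA where 3 are listed. The Ndufb5 region (chr3:32791004-32791376, 30 bp upstream of the TSS; coordinates of regions are on the build of the files, taken as GRCm39) held 1, 44 and 20 reads. TGF-b was 24.5-fold above NC, at a log2 ratio of 4.61 (3.06 to 8.11), and 12.2-fold (3.61) with the single read of NC set to the floor of 3. Cox5a, a subunit of complex IV, held 10, 42 and 10 reads at chr9:57428739-57428855, at 2.01 (1.14 to 3.09) for TGF-b over NC. Ndufs6 held 6, 22 and 12 reads at chr13:73476569-73476738, at 1.81 (0.71 to 3.23). In all 3 genes the TGF-b library was the highest.

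Further members that were higher in TGF-b belonged to complexes I, IV and V and to the assembly of complex II. Ndufb4, an accessory subunit of complex I, held 7 and 23 reads, at 1.67 (0.62 to 2.99). Cox7a2, the ubiquitous isoform of its complex IV subunit, held 7 and 19, at 1.42 (0.32 to 2.75). Atp5f1c held 10 and 26, at 1.36 (0.42 to 2.48). The 3 assembly factors of complex II with a promoter region each had a ratio past 2-fold, where 20.6% of all genes were called, and 1 of the 3 intervals included 0. Beside Sdhaf1, Sdhaf2, which attaches the flavin to Sdha, held 9 and 21 (1.22, 0.20 to 2.40), and Sdhaf4, which binds flavinated Sdha, 4 and 10, with an interval that included 0 (1.28, -0.12 to 3.06). The complex I members Ndufa10 (12 and 26 reads), Ndufb7 (10 and 22) and Ndufaf4 (10 and 22) lay between 1.11 and 1.14. Cox7c, Cox7a2l, Ndufb2 and Ndufa7 were at 0 reads in NC and at 10, 9, 9 and 8 in TGF-b, or at least 3.20-, 2.92-, 2.92- and 2.63-fold higher. These 4 regions lay 1262 to 2930 bp from the TSS. For Cox7a2l, a supercomplex factor, the nearest region was lower in TGF-b instead, at -2.34.

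The lower members included large subunits of complexes II and III. Uqcrc1 held 49 reads in NC and 11 in TGF-b at chr9:108777470-108777545, at -2.02 (-3.05 to -1.19), or 4.06-fold lower. Sdha, the flavoprotein of complex II, held 42, 11 and 9 reads at chr13:74498300-74498502, at -1.80 (-2.83 to -0.95). Ndufaf7, an assembly factor of complex I, held 24 and 6, at -1.74 (-3.16 to -0.66). The NC library was the higher in each. Cox8b, the muscle isoform, held 20 and 5 reads (-1.70, -3.26 to -0.53), Ndufa3 26 and 10 (-1.23, -2.34 to -0.28), and Cox8a 46 and 20 (-1.15, -1.94 to -0.44). Cox6b2, Cox4i2, Ndufs1, Ndufa12 and Ndufb11b were at 0 reads in TGF-b, with 14, 10, 9, 6 and 4 reads in NC. The bounds were at least 3.26-, 2.36-, 2.14-, 1.48- and 1.05-fold lower, so that the last 2 are 2-fold lower by their ratio but not by their bound.

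**Figure D2:**
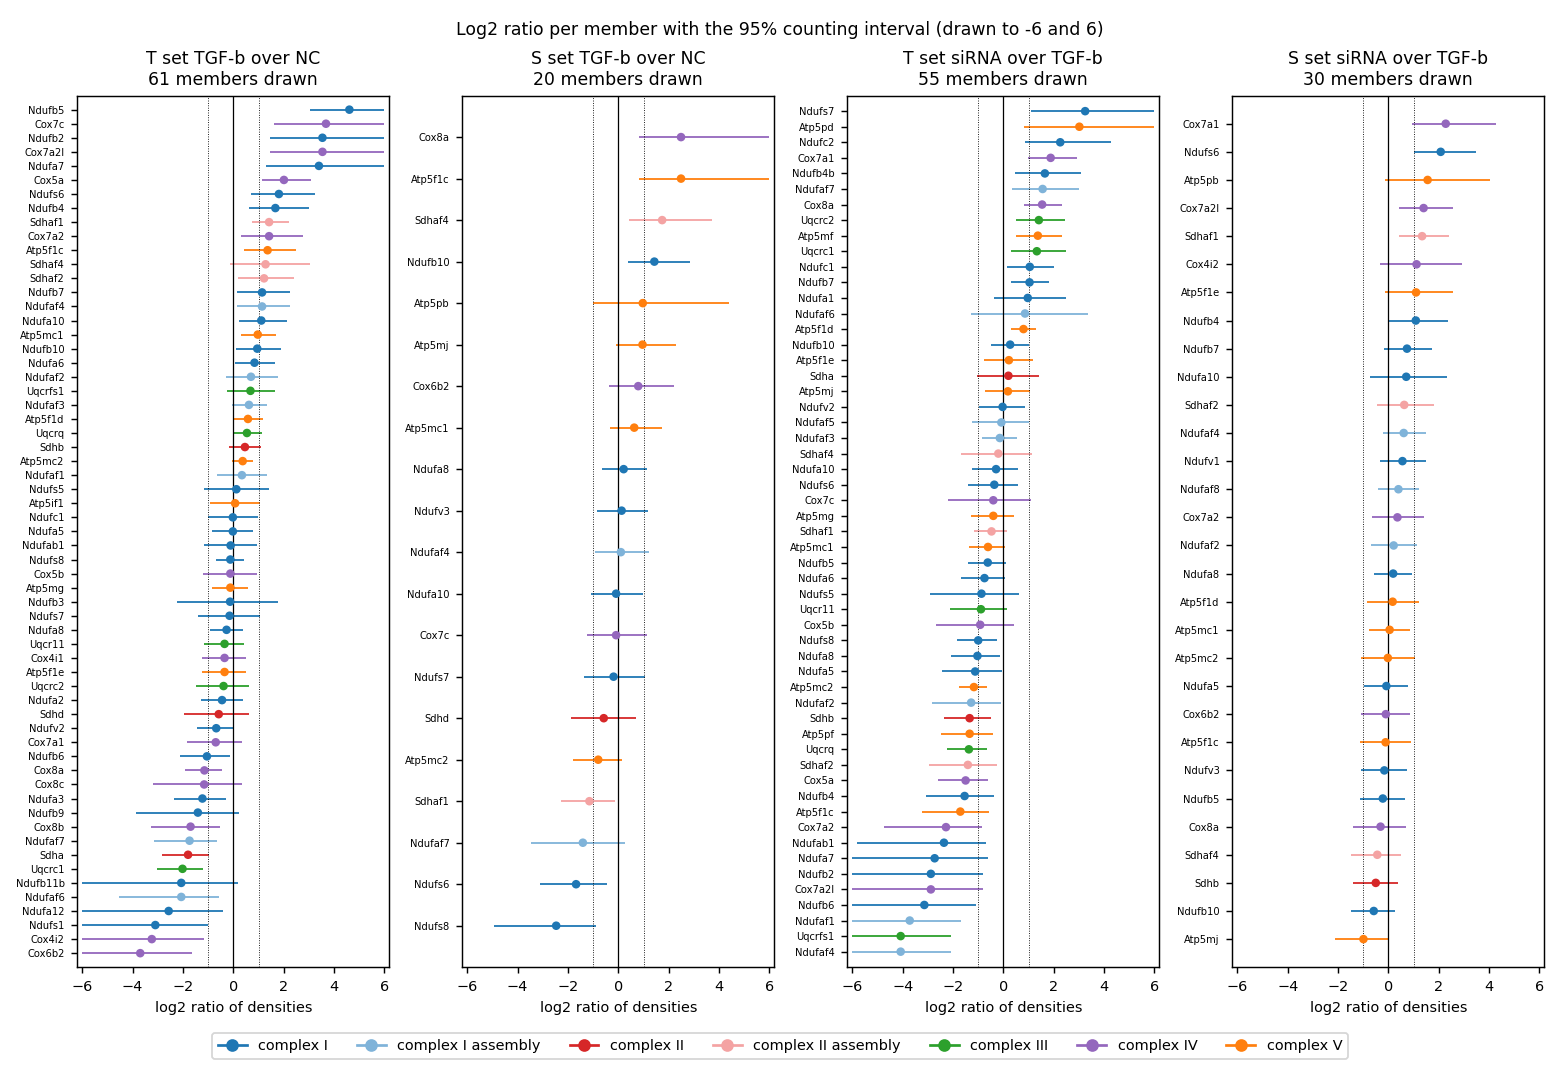
Log2 ratio of the later over the earlier library for the members with a promoter region, in the 4 comparisons (1 member is not drawn in either T set panel), with the 95% counting interval as a line and the complex as colour; dotted lines mark 2-fold. T set members spread to both sides of 0, and none of the 30 members of the S set siRNA comparison lies past 2-fold on the lower side.

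The S set comparison of TGF-b with NC took in 20 members. At least 2-fold higher were 4 of 20 (Wilson interval 8.07% to 41.6%), where 22.2% of all genes were called. At least 2-fold lower were 4 as well, where 15.9% of all genes were called. The median log2 ratio was 0.12 (-0.58 to 0.96) against 0.20 over all genes. Of the 15 members within 200 bp of the TSS, 4 were higher and 2 lower, where 25.5% and 6.78% of such genes were called. These shares rest on small counts and their intervals held the background.

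Cox8a and Atp5f1c each held 1 read in NC and 16 in TGF-b, at 2.49 (0.84 to 5.97). Their regions, chr19:7195017-7195233 and chr2:10085036-10085217, kept 12 and 14 reads in siRNA. With the read of NC set to 3, both ratios were 1.49. Only the NC library was near the floor in both. Sdhaf4 held 3, 19 and 13 reads, at 1.74 (0.42 to 3.74) for TGF-b over NC. Ndufb10, an accessory subunit of complex I, held 6, 27 and 17, at 1.43 (0.37 to 2.84). Atp5mj, a small subunit of complex V, held 7 and 22 reads (0.96, -0.11 to 2.28), Cox6b2 6 and 17 (0.79, -0.37 to 2.23) and Atp5mc1 10 and 24, with 24 in siRNA (0.63, -0.34 to 1.75), and all 3 intervals included 0.

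The lower members were Ndufs6, Ndufs8, Ndufaf7 and Sdhaf1. Ndufs6 held 14, 6 and 27 reads at chr13:73476583-73476721, at -1.68 (-3.13 to -0.47) for TGF-b over NC. The same promoter was higher in TGF-b in the T set (1.81), and this difference between the sets was not tested. Ndufs8 held 10 and 2 reads at a region 2385 bp downstream of the TSS (-2.47, -4.94 to -0.90). Ndufaf7 held 6 and 3 (-1.41, -3.47 to 0.26) and without the rescaling it was at -0.81. Sdhaf1 held 17, 11 and 28 reads 1436 bp downstream of the TSS (-1.15, -2.26 to -0.12). Its ratio was -0.34 at the nearest region and -0.58 without the rescaling, so neither was past 2-fold. Of the 8 densest S set members, Ndufb10 was 2-fold higher and Sdhaf1 2-fold lower, as given. Among the other 6, Ndufa8 held 15, 26 and 29 reads (0.21 for TGF-b over NC), Ndufv3, an accessory subunit of the NADH module, 12, 20 and 17 (0.13), and Ndufaf4 11, 18 and 27 (0.10). Ndufa10 held 12 reads in NC and 17 in TGF-b (-0.09), Atp5mc2 18 and 15 (-0.80), and Atp5mc1 was at 0.63. The intervals of these 6 included 0. Outside the 8, Ndufs7, an iron-sulphur core subunit, held 9 and 12 reads (-0.19).

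The next comparison set the siRNA library against TGF-b alone in the T set. More members were lower than higher, 16 of the 21 lower ones at regions called as peaks in TGF-b alone. Of 56 members, 21 had a ratio at least 2-fold lower in siRNA (37.5%, 26.0% to 50.6%), where 20.4% of all genes were called. At least 2-fold higher were 12 (21.4%, 12.7% to 33.8%), where 31.5% of all genes were called, a share within the interval. At that floor of 3 reads, 18 were lower and 12 higher, where 17.0% and 28.1% of all genes were called. The median log2 ratio was -0.54 (-1.03 to -0.08), against 0.20 over all 16732 genes. The interval of the ratio lay below 0 for 22 members and above 0 for 13, counts that were not made over all genes. The contrast with all genes was smaller near the start. Of 36 members within 200 bp of the TSS, 14 were lower (38.9%, 24.8% to 55.1%), where 26.1% of such genes were called, and 5 were higher, where 14.6% were called. There the interval of the lower share held the background, and the medians were -0.69 in members and -0.28 in all such genes.

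Where the same T set region was chosen in both tables, in 38 members, the medians were 14.5, 22 and 8.5 reads. The same count over 12 members of the S set gave 8.5, 18.5 and 17.0 reads. These reads are not scaled for the depth of the libraries, and the TGF-b library enters both comparisons of a set.

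**Figure D3:**
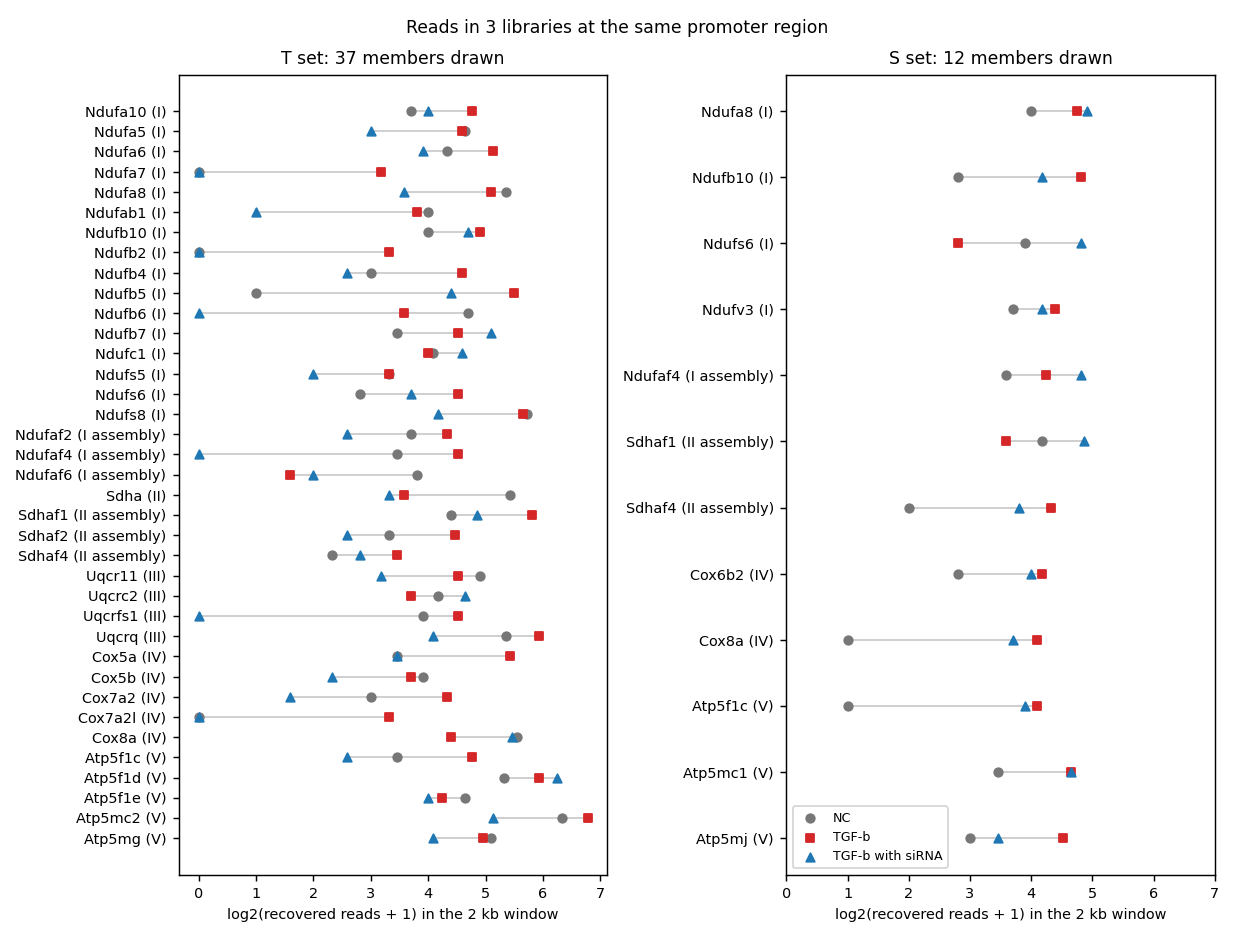
Recovered reads, as log2(reads + 1), in the NC (circle), TGF-b (square) and siRNA (triangle) libraries at promoter regions chosen in both tables of a set, for 37 T set and 12 S set members (1 T set member is not drawn); the complex is in brackets, and symbols with equal reads cover each other. Ndufaf4, Uqcrfs1 and Ndufb6 are at 0 reads in siRNA alone in the T set, and Cox8a and Atp5f1c are low in NC alone in the S set.

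The lowest ratios belonged to an electron carrier subunit and to assembly factors. Uqcrfs1 held 14, 22 and 0 reads at chr13:30729296-30729475, 40 bp upstream of the TSS. Ndufaf4 held 10, 22 and 0 at chr4:24897864-24898076, 113 bp upstream. In both, siRNA was at least 4.22-fold lower than TGF-b. Ndufaf1, another assembly factor of complex I, held 11, 17 and 0 at chr2:119493259-119493428, at least 3.30-fold lower, and Ndufb6 held 25, 11 and 0, at least 2.21-fold lower. Ndufab1, the mitochondrial acyl carrier protein, held 15, 13 and 1 reads, at -2.36 (-5.83 to -0.67) for siRNA over TGF-b. All of these regions lay within 113 bp of the TSS.

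Subunits of complexes I, IV and V were also among the lower members. Cox7a2 held 7, 19 and 2 reads, at -2.28 (-4.74 to -0.84) for siRNA over TGF-b. Atp5f1c held 10, 26 and 5, at -1.71 (-3.25 to -0.58), Ndufb4 7, 23 and 5, at -1.54 (-3.09 to -0.39), and Cox5a 10, 42 and 10, at -1.50 (-2.58 to -0.62). In reads not scaled for depth, these 4 genes held the most in TGF-b, and no more in siRNA than in NC. No ratio of siRNA over NC was taken. Uqcrq held 40, 60 and 16 reads (-1.37, -2.22 to -0.64) and Atp5mc2 79, 109 and 34 (-1.17, -1.75 to -0.64), the latter at 1416 bp upstream; at the nearest region Atp5mc2 was at 0.07. Ndufa8 held 40, 33 and 11 (-1.03, -2.08 to -0.15), and Ndufs8 52, 49 and 17, which at -1.0 (-1.84 to -0.27) fell just inside the threshold. Cox7a2l, Ndufb2 and Ndufa7, at 9, 9 and 8 reads in TGF-b and 0 in siRNA, had bounds of 1.84-, 1.84- and 1.66-fold, and are the 3 that are 2-fold lower by their ratio but not by their bound. Ndufb2 and Ndufa7 were higher in siRNA at their nearest regions (1.44 and 2.43). Ndufb5 went from 44 to 20 reads, at -0.62 (-1.42 to 0.09), an interval that included 0.

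The higher members came from complexes I, III, IV and V. Cox7a1, the heart and muscle isoform of Cox7a, held 11 reads in TGF-b and 31 in siRNA at 21 bp upstream of the TSS, at 1.88 (0.99 to 2.94). Cox8a held 46, 20 and 43 reads, at 1.54 (0.82 to 2.34), and its siRNA reads, not scaled for depth, lay near those of NC. Uqcrc2, a core protein of complex III, held 17, 12 and 24, at 1.41 (0.49 to 2.45). Uqcrc1 was higher too, at 46, 10 and 19 reads in a region 416 bp upstream (1.33, 0.31 to 2.47). Ndufaf7 held 6 and 14 in a region annotated as 3' UTR, 776 bp downstream of its assigned start (1.56, 0.35 to 3.01). It was at 0.45 at its nearest region. Ndufb4b, a copy of Ndufb4, held 6 and 15 (1.65, 0.46 to 3.10). Atp5mf held 14 and 27 reads (1.37), Ndufc1 15 and 23 (1.05) and Ndufb7 22 and 33 (1.04). Without the rescaling, Uqcrc2 (0.94), Atp5mf (0.90), Uqcrc1 (0.86), Ndufc1 (0.58) and Ndufb7 (0.56) were no longer past 2-fold. Ndufc2 held 3 and 13 reads (2.26, 0.86 to 4.28). Ndufs7 and Atp5pd were at 0 in TGF-b and at 6 and 5 reads in siRNA, at least 2.37- and 2.03-fold higher, in regions 1074 and 2026 bp from the TSS. Atp5f1d, with 60 and 75 reads the densest of those above 0, was at 0.80 (0.32 to 1.30).

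In the S set, the siRNA library against TGF-b gave a different picture. Of 30 members, 8 were at least 2-fold higher (26.7%, 14.2% to 44.5%), where 13.6% of all genes were called, and all 8 lay at regions called as peaks in siRNA alone. None was 2-fold lower (0 of 30, upper Wilson bound 11.35%), where 15.1% of all genes were called. The median was 0.28 (-0.08 to 0.71) against 0.05 over all 8145 genes. Within 200 bp of the TSS, 5 of 24 were higher, where 12.5% of such genes were called, and 0 were lower, where 8.02% were called. That share of 0 allows up to 13.8%, so at this distance the lower count could not be told from the background. Atp5mj sat just inside the threshold, with 22 reads in TGF-b and 10 in siRNA (-0.99, -2.12 to -0.01), and was past it after centring on the median of all genes. The interval of the ratio was above 0 for 4 members, included 0 for 25 and was below 0 for Atp5mj alone. These counts were not made over all genes.

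The 4 members above 0 were Cox7a1, Ndufs6, Cox7a2l and Sdhaf1. Cox7a1 held 3 reads in TGF-b and 17 in siRNA at 23 bp upstream of the TSS, at 2.28 (0.94 to 4.29). Ndufs6 held 6 and 27 reads, at 2.08 (1.01 to 3.49), and its siRNA reads, not scaled for depth, were above the 14 of NC. Cox7a2l held 9 and 24, at 1.40 (0.41 to 2.57), and Sdhaf1 11 and 28, at 1.34 (0.43 to 2.40), but 0.13 at its nearest region. Further past 2-fold, with intervals that included 0, were Atp5pb with 2 and 7 reads (1.56), Cox4i2 with 4 and 9 (1.12), Atp5f1e with 6 and 13 (1.10) and Ndufb4 with 8 and 17 (1.09). Another Atp5pb region, 2769 bp downstream of the TSS, went the other way, with 5 reads in TGF-b and 0 in siRNA. Ndufb10 held 27 and 17 reads (-0.58, -1.48 to 0.25), Sdhb 24 and 16 (-0.50, -1.42 to 0.37), Sdhaf4 19 and 13 (-0.44) and Cox8a 16 and 12 (-0.31).

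**Figure D4:**
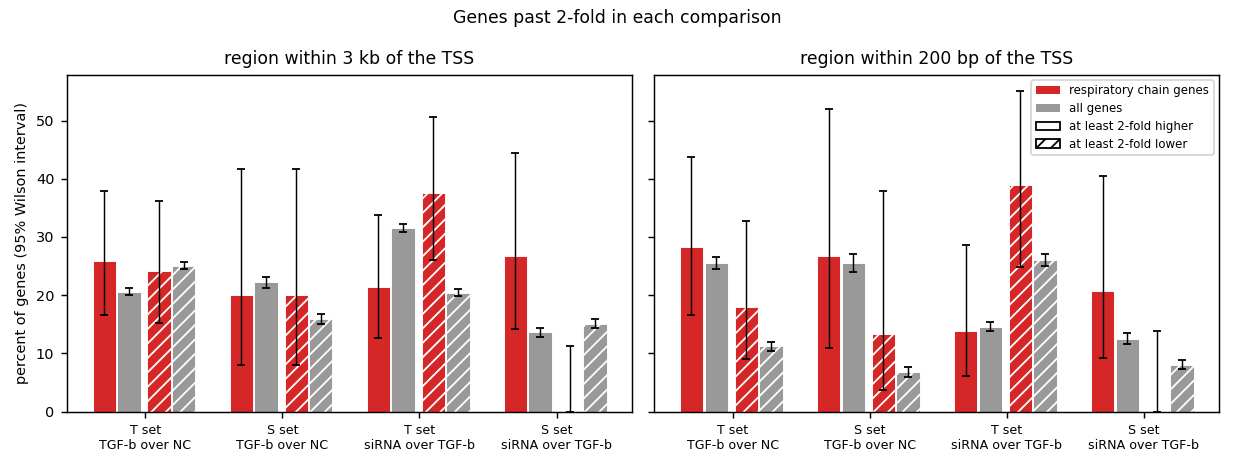
Percent of respiratory chain genes (red) and of all genes (grey) at least 2-fold higher (plain bars) or lower (hatched bars) in the 4 comparisons, with Wilson 95% intervals, for the densest region within 3 kb (left) or those of them within 200 bp (right) of the TSS. The lower share in the T set siRNA comparison is 37.5% in members and 20.4% in all genes, and no member is 2-fold lower in the S set siRNA comparison.

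The siRNA comparisons of the 2 sets use different libraries, and 24 members had a promoter region in both. Their median log2 ratio was -0.62 for T and 0.20 for S. For T, 11 of the 24 were at least 2-fold lower and 3 higher, and for S, 0 were lower and 6 higher. Of the 6132 genes found in both tables, 22.4% were lower and 21.8% higher for T, and 12.2% and 13.0% for S. The T set ratio lay below the S set ratio in 18 of 24 members, and in 55.7% of those genes, whose medians were -0.11 and 0.08. Ndufaf4 gave the widest gap, with 22 and 0 reads for T and 18 and 27 for S. Cox7a1 was the exception past 2-fold in the same direction in both. In the TGF-b over NC tables, 17 members were shared, with medians of 0.95 for T and -0.09 for S. Over the 4976 genes found in both, the medians were 0.16 and 0.23. The T set ratio was the lower in 8 of 17 members, and in 53.7% of those genes. The sets differ in depth and in the siRNA named by their labels, and the antibody and these factors cannot be told apart.

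**Figure D5:**
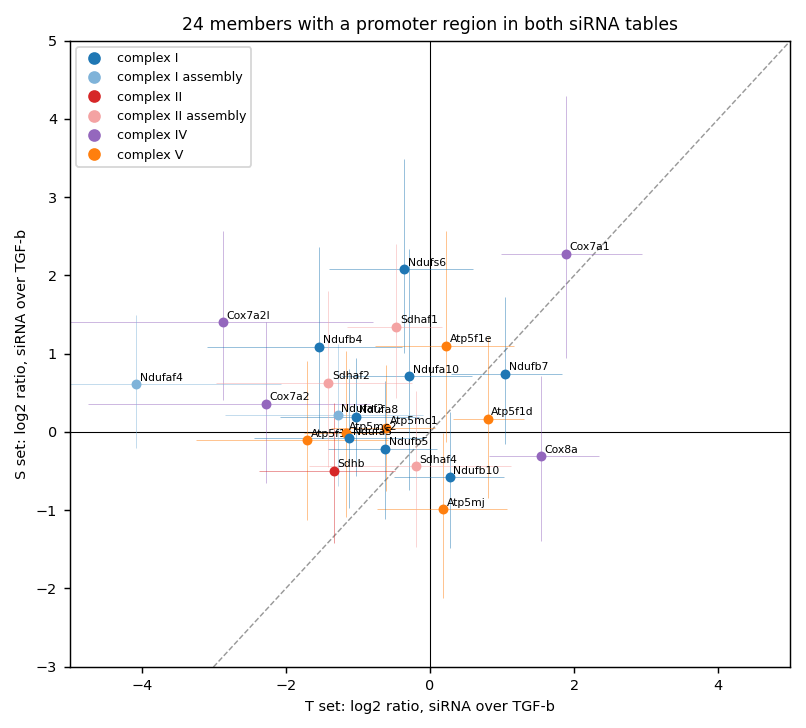
Log2 ratio of siRNA over TGF-b in the T set (horizontal) and the S set (vertical) for the 24 members with a promoter region in both tables, with 95% counting intervals drawn within the axes; the dashed line marks equal ratios. Of the 24 points 18 lie above the line, and Cox7a1 is past 2-fold in both sets.

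By complex, the T set medians for TGF-b over NC were -0.11 for 26 complex I subunits, -0.35 for 5 complex III subunits, -0.53 for 12 complex IV members and 0.37 for 7 complex V members. Here complex IV includes Cox7a2l, and complex V in this comparison includes Atp5if1, an inhibitor of the ATP synthase. For siRNA over TGF-b they were -0.69 for 22 complex I, -0.89 for 5 complex III, -0.92 for 7 complex IV and -0.11 for 10 complex V members. Of the 22 complex I subunits 8 were 2-fold lower (36.4%, 19.7% to 57.1%) and 5 higher (22.7%, 10.1% to 43.4%), and these intervals held the 20.4% and 31.5% of all genes. For siRNA in the S set, complex I stood at 0.37 (n = 10), complex IV at 0.74 (n = 6) and complex V at 0.05 (n = 7). Complexes I, III, IV and V each held members on either side of 0 in both T set comparisons.

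Complex II, which also serves the citric acid cycle, showed no shared direction among its subunits. Sdha was lower in TGF-b than in NC in the T set, as given above, and stayed near it in siRNA (11 and 9 reads, 0.20, -1.06 to 1.40). Sdhb, the iron-sulphur subunit, held 33 reads in NC and 46 in TGF-b (0.46, -0.17 to 1.11) at chr4:140688493-140688712, where siRNA held 4. In the siRNA table its densest region, 561 bp upstream, held 41 reads in TGF-b and 11 in siRNA (-1.34, -2.37 to -0.48), and the S set held 24 and 16. Sdhd, a membrane anchor, held 12 and 7 reads in the T set (-0.58, -1.96 to 0.64) and 9 and 9 in the S set (-0.58, -1.87 to 0.71), the latter after rescaling. Sdhc had no region.

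Among the complex IV isoforms, 5 of 7 tissue forms and 3 of 6 ubiquitous forms had a promoter region. Cox4i1, the ubiquitous form, held 24 reads in NC and 18 in TGF-b in the T set (-0.35, -1.24 to 0.50), 6 bp from the TSS, and Cox4i2 10 and 0 in a region 2280 bp from it. Cox7a1 held 18 and 10 reads (-0.70, -1.85 to 0.33), 2628 bp upstream, and Cox7a2 7 and 19 near its start. Cox8b held 20 and 5, and the testis form Cox8c 9 and 3 (-1.16, -3.20 to 0.35), both more than 1 kb upstream. Cox6b2, a testis form, held 14 and 0 reads in the T set, 2776 bp upstream, and 6, 17 and 15 in the 3 S set libraries, 126 bp upstream. The T set regions of these tissue forms in the TGF-b over NC table thus lay far from the start, and those of Cox4i1, Cox7a2 and Cox8a within 140 bp.

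The ratios went with the library whose peak defined the region. For TGF-b over NC in the T set, 12 of 20 members called in TGF-b alone were 2-fold higher and 12 of 24 called in NC alone were 2-fold lower, and of the 18 called in both 3 were higher and 2 lower. Over all genes, 53.6% of those called in TGF-b alone were higher and 45.7% of those called in NC alone lower, and 16.5% of those called in both were higher and 4.51% lower. For siRNA in the T set, 27 members (48.2%) were called in TGF-b alone, against 31.0% of all genes, and 16 (28.6%) in siRNA alone, against 51.5%. Of those 27, 16 were lower (59.3%, 40.7% to 75.5%), where 52.1% of all genes called in TGF-b alone were, so that most of the 21 lower members come from regions called only where they are high. Of the 16, 8 were higher, where 56.2% of such genes were. Of the 13 T set members called in both libraries, 3 were higher and 3 lower (23.1% each), where 6.39% and 15.1% of all genes called in both were. For siRNA in the S set, 20 of 30 members (66.7%) were called in siRNA alone, against 51.1%. All 8 higher members were among these 20 (40.0%, 21.9% to 61.3%), where 25.5% of such genes were higher. None of the 5 called in both or the 5 called in TGF-b alone was higher or lower, where 3.09% and 0.229% of such genes were higher and 2.20% and 43.7% lower.

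Members were also split by motif content. For siRNA over TGF-b in the T set, the median was -0.89 in 9 members with NRF1 letters and -0.44 in 42 without. It was 1.05 in 5 members with YY1 letters and -0.68 in 46 without, and these 5 were 3 higher, 1 lower and 1 between, where 31.5% of all genes were higher and 20.4% lower. With ETS letters it was -0.89 in 13 and -0.50 in 38 without. For TGF-b over NC in the T set, the medians with and without were 0.12 and 0.23 for NRF1 letters (8 and 44 members), -0.12 and 0.48 for ETS letters (12 and 40) and -0.02 and 0.34 for YY1 letters (3 and 49). For siRNA in the S set they were 0.08 and 0.38 for NRF1 letters (4 and 24) and 0.63 and 0.19 for ETS letters (7 and 21), the latter in the other order than for T. For TGF-b in the S set they were 0.10 and 0.02 for NRF1 letters (3 and 16) and -0.86 and 0.13 for ETS letters (4 and 15). These splits are small and were not tested.

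Other genes of the pathway were taken from lists of 20 partners and assembly factors of complexes III and IV, 13 citric acid cycle genes and 12 regulators. With TGF-b over NC in the T set, 3 of 9 assembly genes with a promoter region were 2-fold higher and 1 lower, 0 of 11 citric acid cycle genes higher and 2 lower, and 4 of 11 regulators higher and 0 lower, where 20.6% of all genes were higher and 25.1% lower. The higher regulators were Tfb1m, a mitochondrial rRNA methyltransferase, with 15 and 61 reads (1.97, 1.23 to 2.84), Gabpa with 17 and 43 (1.31, 0.56 to 2.16), Yy1 with 30 and 62 (1.01, 0.41 to 1.65) and Ppargc1a, the coactivator of mitochondrial biogenesis, with 3 and 13 (1.95, 0.55 to 3.97). Cox17, a copper chaperone of complex IV, held 5 and 21 (1.98, 0.82 to 3.53). The same counts of the S set were 0 higher and 0 lower of 4 assembly genes, 1 and 0 of 5 citric acid cycle genes, and 0 and 0 of 4 regulators, where 22.2% and 15.9% of all genes were called.

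With siRNA in the T set, 3 of 11 assembly genes were higher and 1 lower, 2 and 2 of 11 citric acid cycle genes, and 1 and 2 of 9 regulators, where 31.5% and 20.4% of all genes were called. Gabpa held 41 and 11 reads (-1.34, -2.37 to -0.48) and Yy1 62 and 21 (-1.04, -1.79 to -0.38), the 2 lower regulators. Atp5pf, which shares its promoter with Gabpa, held 34 and 9 (-1.34, -2.49 to -0.41), and the 2 kb windows of these regions overlap, so they are not separate evidence. Idh3a, a subunit of isocitrate dehydrogenase, held 39 and 5 (-2.27, -3.80 to -1.20). Tfam, which packs mitochondrial DNA, held 46 and 17 (-0.91, -1.75 to -0.17). With siRNA in the S set, 0 of 7 assembly genes were higher and 1 lower, 1 and 0 of 7 citric acid cycle genes, and 0 and 1 of 6 regulators, where 13.6% and 15.1% were called. That regulator was Polrmt, the mitochondrial RNA polymerase, with 64 and 29 reads (-1.10, -1.76 to -0.50), and Fh1, fumarase, was the higher citric acid cycle gene, with 14 and 41 (1.53, 0.73 to 2.46).

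The labelled cell type could not be checked, since a region does not measure expression. Promoter regions were present in the T set TGF-b over NC table for 5 of 8 fibroblast markers, 4 of 5 cardiomyocyte, 3 of 4 endothelial and 2 of 4 macrophage markers. The T set siRNA comparison had 5, 3, 3 and 3. Those of the S set were 2, 2, 1 and 1 for TGF-b over NC, and 1, 3, 1 and 1 for siRNA over TGF-b. Of 26742 genes with any region, 16652 (TGF-b over NC) and 16732 (siRNA over TGF-b) had a promoter region in the T set. In the S set 6762 and 8145 had one. In the T set siRNA comparison all 3 cardiomyocyte markers with a region were 2-fold higher (median 1.91), as were 2 of 5 fibroblast, 1 of 3 endothelial and 2 of 3 macrophage markers, and 1 marker of each of the latter 3 lists was lower, where 31.5% of all genes were higher and 20.4% lower. Defining markers of cells other than fibroblasts thus also carried regions, and their part in the results was not tested. Several members have close copies elsewhere in the genome, such as Ndufb4 and Ndufb4b, and how reads that map to more than 1 place were handled is not given in the sources used here.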

How the data were processed

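CUT&Tag was performed on primary mouse cardiac fibroblasts, with 6 libraries and 1 library per group. According to the labels, reads were aligned with BWA 0.7.12 to mm10, whereas the study's methods name Bowtie2 and GRCm39 and a peak caller written as Masc2. Only 1.88% of 47515 transcript starts in the files were equal to those of GENCODE M21 (GRCm38), so their coordinates were treated as GRCm39. Promoter sequences came from RefSeq GRCm38.p6, joined by gene name and never by position.

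The authors deposited 4 tables, each of 2 libraries over merged peaks, with a normalized read density per region as a signal. This density is reads plus 1 per kb, in a window of 2 kb, and the authors fitted a line to the regions shared by both libraries and subtracted it, so that ratios are relative to those regions. With the line undone, 99.98% to 99.99% of regions came out as whole read numbers (tolerance 0.1). The total depth of the libraries was not used here. The deposited log2 fold changes and p-values of the authors were not used. There were 0 density columns that belonged to no sample.

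Ratios were taken between the later and the earlier library of the design, per table, since tables were normalized separately. The threshold was 2-fold, a ratio's interval was derived from a Wilson 95% interval for the later library's reads among both, and medians have rank intervals. PCR reads are not independent molecules, so intervals of ratios and floors cover counting error only. Named with values in each library for which a table lists the region were the 8 members of highest mean density over NC and TGF-b per set, the 5 highest and 5 lowest ratios per table among members with 20 reads or more, Sdha to Sdhd, the complex IV isoforms and Ndufb5. Of the members, 1 is counted but not reported here by name. Other genes named were chosen after their values were seen. The members and lists were chosen with earlier results of these data known. Alternatives were a threshold of 1.5-fold, centring on the median, no line, a distance of 1 kb, the nearest region, a floor of 3 reads and structural subunits only. Distances of 200 bp and a minimum of 20 reads were added after seeing the data. The steps were tested on simulated data. Python 3.11.15, numpy 2.4.6, pandas 2.3.3 and scipy 1.17.1 were used.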

Additional observations from a re-analysis of the deposited data

Results flagged for a closer look

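The median log2 ratio of the respiratory chain genes had opposite signs in the T set and the S set. For TGF-b over NC it was -0.07 (T) and 0.12 (S), both rank intervals included 0, and the medians of all genes had these signs too (-0.04 and 0.20). After centring on those, both member medians were below 0 (-0.03 and -0.08), and at 17 members found in both tables the order turned (0.95 and -0.09). For siRNA over TGF-b it was -0.54 (T) and 0.28 (S), against 0.20 and 0.05 over all genes. No test of these differences was made, as each rests on 1 library per group. At 24 members found in both siRNA tables, the medians were -0.62 and 0.20.

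Regions on the mitochondrial genome, which no comparison above used, carried far more reads than the nuclear promoters. The highest of 3 regions assigned to mt-Nd1, a mitochondrially encoded subunit of complex I, held about 805000 reads in the TGF-b library of the T set and 382000 in NC. In the S set it held about 262000 in TGF-b and 214000 in NC. After the rescaling, the log2 ratio of TGF-b over NC at the mitochondrial regions lay between -0.15 and 0.38 (T) and between -0.44 and 0.33 (S). That of siRNA over TGF-b lay between -0.61 and 0.19 (T, median -0.11) and between -0.71 and 0.03 (S, median -0.49). The mitochondrial reads are rounded.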

How the results depend on the processing

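The 4 medians stayed within their rank intervals under the alternatives run on them, although that of the S set for TGF-b over NC turned to -0.08 after centring and those of the T set to between 0.03 and 0.26 at shorter distances or with 20 reads or more. Over single members, 805 of 816 values under 5 alternatives stayed within their intervals, 3 moved and 8 reversed. The reversals came from a region closer to the TSS, within 1 kb or nearest: Cox7a2l for TGF-b over NC in the T set (-2.34), and Atp5mc2 (0.07), Ndufa7 (2.43) and Ndufb2 (1.44) for siRNA over TGF-b. Distances of 200 bp and a minimum of 20 reads were chosen after seeing the data. In the T set, the 15 of 62 members lower in TGF-b became 8 of 48 within 1 kb, 7 of 42 with a region within 200 bp and 7 of 46 with 20 reads or more, and the share of all genes went from 25.1% to 19.0%, 12.4% and 17.9%. The 12 of 56 higher in siRNA became 7 without the line and 6 of 40 within 200 bp, and all genes went from 31.5% to 22.8% and 15.8%, and the 21 lower (all genes 20.4%) ranged from 15 of 40 within 200 bp (26.1%) and 15 of 41 with 20 reads or more (20.9%) to 28 of 56 at 1.5-fold (28.8%) and without the line (30.0%). In the S set, the 4 of 20 higher in TGF-b became 8 at 1.5-fold, 8 without the line and 2 of 14 with 20 reads or more, and all genes went from 22.2% to 35.8%, 40.4% and 22.2%, and the 4 lower became 2 without the line, within 1 kb, within 200 bp, for structural subunits only and with 20 reads or more (all genes 15.9%, and 7.94%, 10.5%, 6.97%, 15.8% and 7.13%). The 8 of 30 higher in siRNA became 5 of 24 within 200 bp and 5 of 26 with 20 reads or more (all genes 13.6%, 12.6% and 10.1%), and the 0 lower became 1 at 1.5-fold, 1 after centring and 1 without the line, each time Atp5mj (all genes 15.1%, and 25.2%, 16.3% and 16.4%). Of the 31 members in both sets, 20 had regions that overlapped, a count not made over all genes. Shorter distances and minimum reads test fewer members, and the other causes were not tested. Without the line, the median of all genes moved from 0.20 to 0.77 in the S set for TGF-b over NC and from 0.20 to -0.26 in the T set for siRNA over TGF-b. Depth limits the values, as a median member held 9.0 to 20.5 reads per library. No paired analysis was possible because each group had 1 library.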
